A study of Homo sapiens with 24 samples.

Results

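The genes described here encode the enzymes that methylate lysine 9 of histone H3 (H3K9) and the HP1 proteins and adaptors that act with them. The rule that chose them lists symbols and uses no measured value: EHMT1, EHMT2, SUV39H1, SUV39H2, SETDB1, WIZ, TRIM28, CBX1, CBX3 and CBX5. Of these 10 genes, 9 had rows in the count table, with 27 RefSeq accessions among the 64519 accessions of 27387 named genes, and EHMT2, the gene of G9a, was not analysed here. Nalm6 is an established cell line from a human B-cell precursor leukemia. RNA was sequenced from 24 libraries of Nalm6 populations that carried a lentiviral shRNA against a non-specific sequence (shNS), G9a (shG9a), GLP (shGLP, gene EHMT1) or HP1γ (shHP1γ, gene CBX3). Each population was treated for 8 h with 100 nM dexamethasone (dex), a synthetic glucocorticoid, or with vehicle ethanol, which gave 8 groups of 3 biological replicates prepared on different days. All groups, controls included, had been transduced and selected with puromycin, and the cells are populations rather than clones.

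Methylated H3K9 is a mark of repressed chromatin. G9a and GLP form a complex that places mono- and dimethylation in euchromatin, whereas SUV39H1, SUV39H2 and SETDB1 place trimethylation at heterochromatin and repeats, and the HP1 proteins bind the methylated lysine through their chromodomain. The same G9a and GLP also act as coregulators of the glucocorticoid receptor, with HP1γ as a partner. The question asked of the data was whether the mRNA of the related factors rose when G9a, GLP or HP1γ was depleted.

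Averaged over ethanol and dex, none of the 8 member transcripts that could be tested was called higher on depletion of G9a, GLP or HP1γ. Of all tested transcripts, 6.36%, 5.79% and 6.16% were called higher, shares at which a count of 0 among 8 says little about these genes in particular. The member transcripts called against shNS were of the targeted genes. EHMT1 fell in cells expressing shGLP, to 70.1% of the shNS level, and a CBX3 transcript fell in cells expressing shHP1γ, to 68.2%. Each was 1 of 8 members called, where 10% of all tested transcripts were called. Both calls were lost when any 1 replicate was left out, and neither passed in ethanol or dex alone. TRIM28 and the main WIZ transcript, which had the most reads, had narrow intervals that included no change. With shGLP and shHP1γ these intervals lay mostly above it. CBX1, SUV39H2 and SETDB1 had too few reads to be tested.

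The number of reads differed greatly among these genes and their accessions. TRIM28, with 1 accession in the table, had 13302 to 23137 counts per library. WIZ, with 2 accessions, had 386 to 615 counts in all. CBX3 had 50 to 127 over 2 accessions, CBX5 34 to 79 over 3, and EHMT1 18 to 50, all of them on 1 of its 6 accessions. For EHMT1, the other 5 accessions were at 0 in every library. SUV39H1 had 2 to 14 counts, SETDB1 1 to 8, SUV39H2 0 to 8 and CBX1 0 to 2.

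The same pattern held over the whole table. Of 8811 genes with a single protein-coding accession, 38.9% had over 100 counts per library on average, against 9.74% of the 6589 genes with 2 or 3 and 3.81% of the 3647 genes with 4 or more. The low counts of CBX1 or SETDB1 therefore give no measure of how much of their mRNA the cells held. Whether reads shared by several accessions of a gene were dropped in counting was not tested, and the counting mode is not given in the sources used here. A value for CBX3 or EHMT1 describes the reads assigned to that accession and not all mRNA of the gene.

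**Figure D1:**
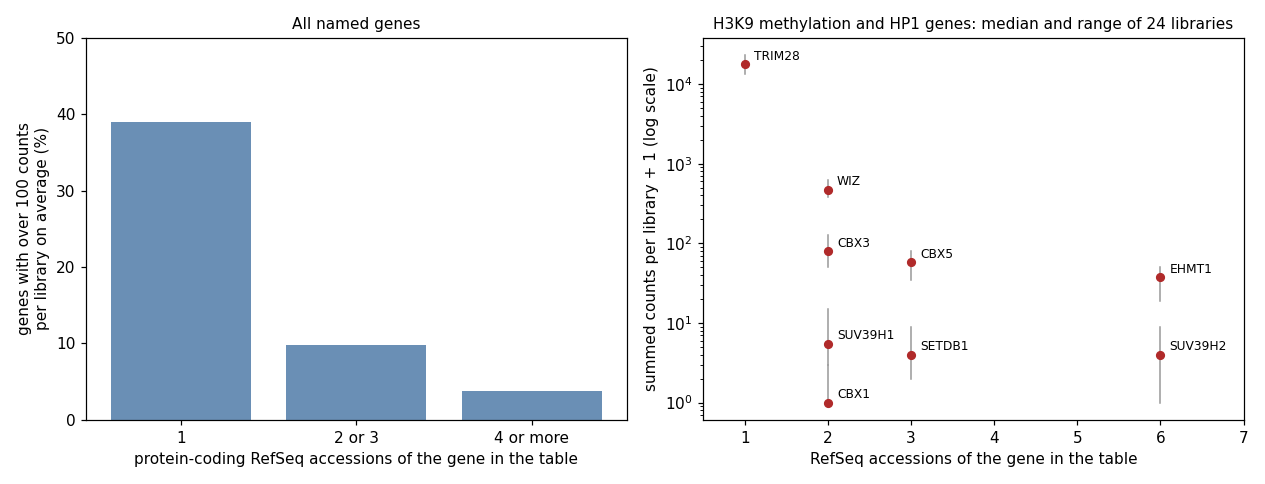
Left, share of genes with over 100 counts per library on average (y axis, percent) by the number of protein-coding RefSeq accessions of the gene (x axis), from 38.9% at 1 to 3.81% at 4 or more. Right, summed counts per library plus 1 (log scale; points are medians and lines the range of 24 libraries) against the number of accessions for 9 of the genes; TRIM28 lies highest and CBX1 lowest.

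Counts were scaled by library size with upper quartile factors and are given as normalized CPM. A transcript was tested if it had over 1 CPM in at least 2 libraries, which left 8 transcripts of 6 member genes among 10167 transcripts of 9383 genes. These were EHMT1 NM_001354259, CBX3 NM_016587 and NM_007276, CBX5 NM_012117, SUV39H1 NM_003173, TRIM28 NM_005762, and WIZ NM_001330395 and NM_021241. Each was tested in edgeR by quasi-likelihood, in 1 model over the 24 libraries that held the replicate number as a block, and p values were adjusted over all tested transcripts, with a limit of 0.05. The library totals ran from 9289533 to 14387770. Of the B-cell precursor markers, RAG1, IGLL1 and MME had at least 189 counts in every library, while CD79B and DNTT, which both have several accessions, were at 0. The 5 T-cell markers had at most 3 counts in any library.

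The promoters of CBX3 and EHMT1, whose transcripts fell with their own hairpins, and of CBX5 are shown because 1 arm of the study was treated with a glucocorticoid and the receptor binds DNA at an inverted repeat. The windows cover 250 bases before and 50 bases after an annotated start and are taken from RefSeq on GRCh38.p14. They are written 5′ to 3′ on the strand of the gene. Capitals mark the GC box (GGGCGG), the CCAAT box (CCAAT) and the receptor half-site (TGTTCT), each on either strand.

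CBX3 promoter, chr7:26201193-26201492, plus strand: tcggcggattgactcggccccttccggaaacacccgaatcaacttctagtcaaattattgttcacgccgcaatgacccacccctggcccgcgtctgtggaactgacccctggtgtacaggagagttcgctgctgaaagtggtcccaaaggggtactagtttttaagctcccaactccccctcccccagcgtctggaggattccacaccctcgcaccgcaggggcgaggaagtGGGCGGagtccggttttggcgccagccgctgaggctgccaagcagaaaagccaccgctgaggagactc

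EHMT1 promoter, chr9:137618755-137619054, plus strand: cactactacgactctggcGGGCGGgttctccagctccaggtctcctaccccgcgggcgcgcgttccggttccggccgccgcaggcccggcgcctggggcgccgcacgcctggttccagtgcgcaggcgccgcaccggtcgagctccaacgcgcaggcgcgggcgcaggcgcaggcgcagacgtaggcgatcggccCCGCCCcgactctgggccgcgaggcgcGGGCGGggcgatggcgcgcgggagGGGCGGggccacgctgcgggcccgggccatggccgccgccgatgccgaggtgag

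CBX5 promoter, chr12:54280073-54280372, minus strand: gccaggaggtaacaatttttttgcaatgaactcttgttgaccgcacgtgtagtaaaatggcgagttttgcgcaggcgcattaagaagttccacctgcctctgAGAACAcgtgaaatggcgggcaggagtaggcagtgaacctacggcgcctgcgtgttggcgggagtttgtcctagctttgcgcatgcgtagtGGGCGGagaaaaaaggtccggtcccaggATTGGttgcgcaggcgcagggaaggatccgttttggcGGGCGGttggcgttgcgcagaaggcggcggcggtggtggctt

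The EHMT1 window held 4 GC boxes, the CBX5 window 2 and the CBX3 window 1, beside a share of 45.0% of all 35116 promoters of this length with at least 1. The full receptor palindrome, AGAACA and TGTTCT with 3 bases between them, which contains the half-site on both strands, was in none of the 15 windows of 9 member genes and in 1 of all promoters. The half-site was in this CBX5 window and in no other member window, and 14.8% of all promoters held it. The CCAAT box was in 34.6% of all promoters, and among the windows printed here only in that of CBX5. A match describes letters in the window and not binding.

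The targeted gene was examined first in each depletion. EHMT1 (chr9:140513444-140764468, plus strand, GRCh37) encodes GLP. In ethanol, EHMT1 NM_001354259 had 3.74, 4.60 and 3.91 normalized CPM in the 3 shNS libraries and 2.98, 1.66 and 3.22 in the 3 shGLP libraries. All shGLP libraries thus lay below all shNS libraries in ethanol, a separation downward that 8.74% of all tested transcripts showed in this comparison. With dex the values were 2.67, 3.53 and 3.72 for shNS and 2.22, 2.35 and 3.08 for shGLP, and the groups overlapped. The raw counts behind these values were 18 to 34 with shGLP and 29 to 50 with shNS.

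Averaged over ethanol and dex, EHMT1 fell by 0.51 on the log2 scale with shGLP (SE 0.15, 95% interval -0.82 to -0.21, n = 6 libraries a side, adjusted p = 0.0255 with edgeR), to 70.1% of shNS (interval 56.7% to 86.6%). Within each replicate, EHMT1 was lower with shGLP in both treatments, thus in 6 of 6 pairs. The 6 libraries a side are 3 replicates in each treatment, and the ethanol and dex libraries of a replicate may share a transduced population. The model held no term for such sharing. In every averaged comparison, the interval, adjusted p and pairs may therefore overstate the independent replication. It was 1 of 8 member transcripts called in this comparison, in which 10% of all tested transcripts were called. Ethanol and dex taken separately did not pass, with a log2 change of -0.65 in ethanol (adjusted p = 0.0923, edgeR) and of -0.37 in dex (adjusted p = 0.41, edgeR).

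The EHMT1 call was close to the limit. It was lost without the replicate block (adjusted p = 0.0656, edgeR) and without each of the 3 replicates, where the adjusted p was 0.0555 without replicate 1, 0.374 without replicate 2 and 0.132 without replicate 3. Without replicate 2, the log2 change was -0.29. Among single libraries, the call was lost without shGLP ethanol replicate 2 (adjusted p = 0.088), shGLP dex replicate 1 (0.0671) or 2 (0.0538), shNS ethanol replicate 2 (0.0889), and shNS dex replicate 2 (0.0831) or 3 (0.06). The direction was downward in each of these fits.

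In the other depletions, EHMT1 did not pass the test. It had 3.32, 3.01 and 4.05 CPM with shG9a in ethanol and 3.81, 3.09 and 3.85 with dex, an averaged log2 change of -0.07 (interval -0.35 to 0.22, adjusted p = 0.816, edgeR). With shHP1γ it had 3.39, 3.57 and 3.83 CPM in ethanol and 3.81, 2.73 and 3.49 with dex, an averaged change of -0.09 (interval -0.38 to 0.20, adjusted p = 0.783, edgeR).

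CBX3 (chr7:26240782-26253227, plus strand, GRCh37) encodes HP1γ. In ethanol, CBX3 NM_016587 had 4.26, 4.24 and 3.57 CPM in the shNS libraries and 3.39, 2.78 and 2.41 in the shHP1γ libraries. With dex the values were 3.59, 4.13 and 3.23 for shNS and 1.59, 2.88 and 2.64 for shHP1γ. The shHP1γ libraries lay below the shNS libraries with no overlap in both treatments, as did 6.91% of all tested transcripts in ethanol and 6.41% with dex.

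Averaged over the treatments, CBX3 NM_016587 fell by 0.55 on the log2 scale with shHP1γ (SE 0.15, interval -0.87 to -0.23, adjusted p = 0.0231, edgeR), to 68.2% of shNS (interval 54.6% to 85.1%), and was lower in 6 of 6 pairs. Here too 1 of 8 member transcripts was called, against 10% of all tested transcripts. The second transcript, NM_007276, had 183 counts over the 6 shHP1γ libraries and 223 over the 6 shNS libraries, and its averaged change of -0.23 did not pass (interval -0.57 to 0.12, adjusted p = 0.479, edgeR). With both accessions summed, CBX3 fell by 0.38 on the log2 scale (adjusted p = 0.0432, edgeR). These averaged tests also treat ethanol and dex libraries of a replicate as independent. Over all tested transcripts, deviations from the group means in shHP1γ ethanol and dex libraries correlated at 0.535, 0.275 and 0.412 in replicates 1, 2 and 3.

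The call of CBX3 NM_016587 was likewise lost when a whole replicate was left out, with an adjusted p of 0.129 without replicate 1, 0.0951 without replicate 2 and 0.122 without replicate 3. It was also lost without shHP1γ dex replicate 1 (adjusted p = 0.0772), shHP1γ ethanol replicate 2 (0.0532) or 3 (0.0628), shNS ethanol replicate 1 (0.0557) or 2 (0.0508), or shNS dex replicate 2 (0.0724). The log2 change stayed between -0.64 and -0.42 in all fits that left out a single library.

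With shG9a, CBX3 NM_016587 had its highest group means. The libraries had 5.76, 4.22 and 4.80 CPM in ethanol and 5.10, 5.90 and 3.85 with dex, and both sets overlapped with shNS. The averaged log2 change was 0.37 (interval 0.08 to 0.66, unadjusted p = 0.0152), higher in 5 of 6 pairs, and did not pass over all tested transcripts (adjusted p = 0.088, edgeR). It passed when shHP1γ dex replicate 1 (adjusted p = 0.0471) or shG9a dex replicate 3 (adjusted p = 0.047) was left out. The other accession pointed downward, at -0.14 (interval -0.48 to 0.20), and with both summed the change was 0.17 (adjusted p = 0.371, edgeR). Of the 8 member transcripts, 0 were called with shG9a by edgeR or by DESeq2, 1 had an unadjusted p under 0.05, and 13.6% of all tested transcripts were called.

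**Figure D2:**
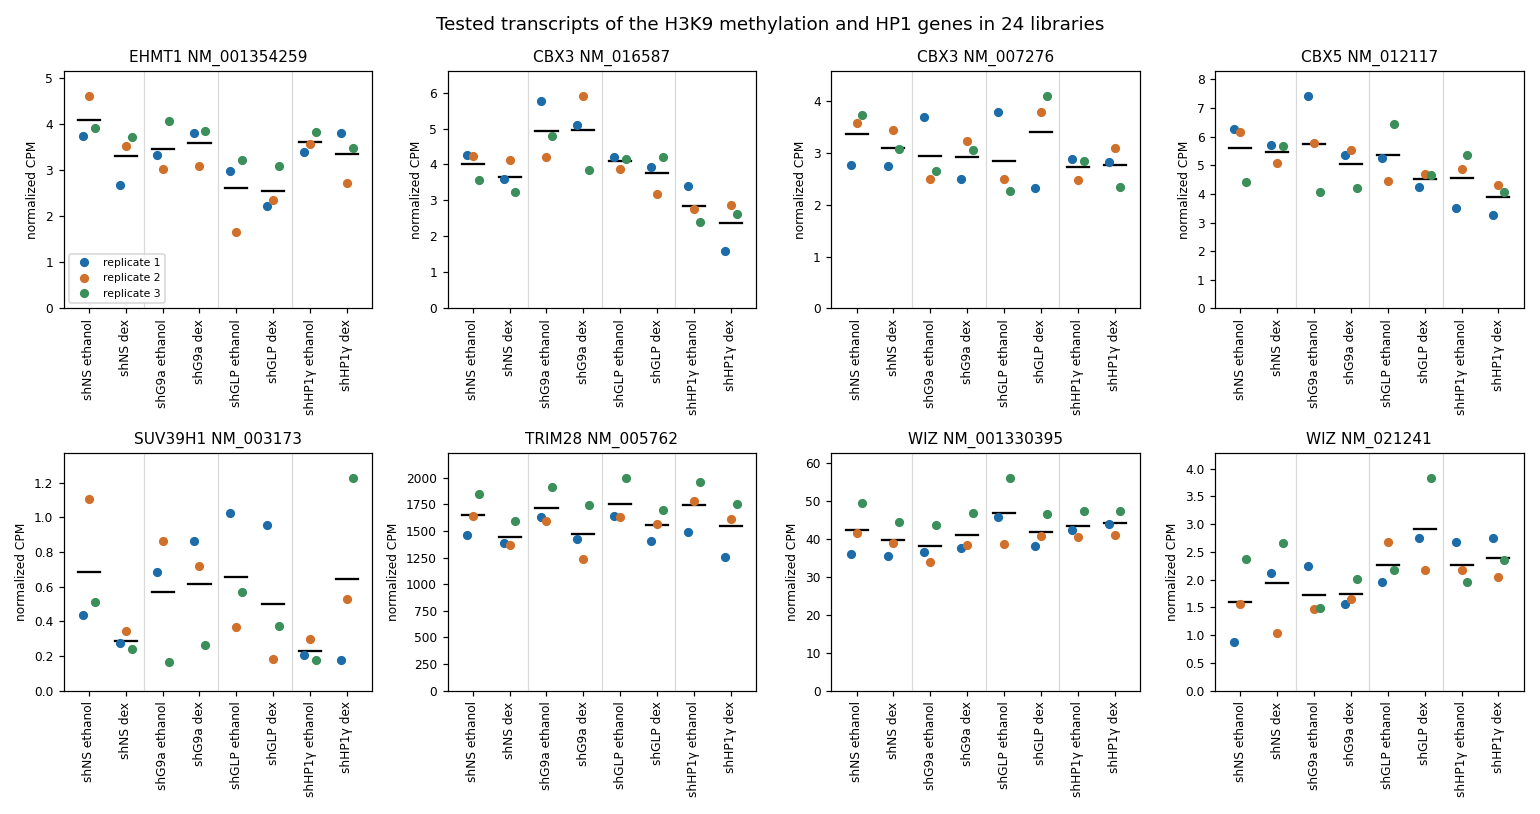
Normalized CPM (y axis, from 0) of the 8 tested member transcripts in the 8 groups (x axis); points are libraries, coloured by replicate, and bars are group means of 3. CBX3 NM_016587 is lowest in the shHP1γ groups, at 1.59 to 3.39, and EHMT1 in the shGLP groups, at 1.66 to 3.22, whereas TRIM28 and WIZ NM_001330395 overlap between shNS and each depletion in both treatments.

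The depleted populations were also compared with each other, since such a difference is not taken against shNS. The shNS libraries stayed in the model and so still entered its estimate of spread. CBX3 NM_016587 was lower with shHP1γ than with shG9a by 0.92 on the log2 scale (SE 0.15, interval -1.23 to -0.61, adjusted p = 0.000136, edgeR), 52.9% of the shG9a level, where 15.1% of all tested transcripts were called. This difference passed in each fit that left out a replicate or a library, but its reference, shG9a, had the highest group means of this transcript. Against shGLP, CBX3 NM_016587 was lower by 0.59 (adjusted p = 0.0152, edgeR), beside 10.7% of all transcripts called. That call was lost without replicate 1 (adjusted p = 0.126) or 3 (0.209), shHP1γ dex replicate 1 (0.0587) or shGLP dex replicate 3 (0.0586).

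EHMT1 was lower with shGLP than with shG9a by 0.45 (SE 0.15, adjusted p = 0.0417, edgeR), a comparison with 15.7% of all transcripts called. DESeq2 gave an adjusted p of 0.069, and the fit without the replicate block gave 0.0878. The adjusted p was 0.123 to 0.171 when a replicate was left out, and 8 of the 24 fits without a single library lost the call, with an adjusted p of up to 0.127. These 8 libraries were shGLP ethanol replicate 2, shGLP dex replicates 1 and 2, shG9a ethanol replicates 1, 2 and 3, and shG9a dex replicates 1 and 3. The difference between shHP1γ and shGLP was 0.43 and did not pass (adjusted p = 0.0737, edgeR).

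**Figure D3:**
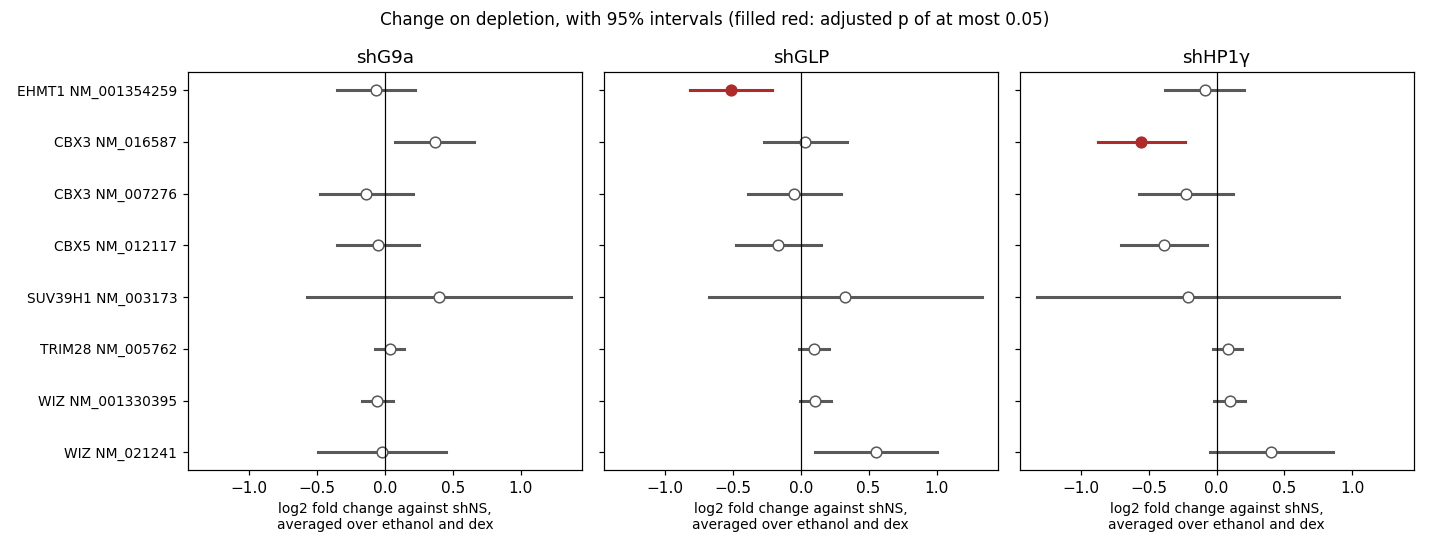
Log2 fold change against shNS averaged over ethanol and dex (x axis) of the 8 tested member transcripts (rows) in each depletion (panels), with 95% intervals as lines; filled red marks an adjusted p of at most 0.05. Only EHMT1 with shGLP (-0.51) and CBX3 NM_016587 with shHP1γ (-0.55) are filled, and the intervals of TRIM28 and WIZ NM_001330395 are the narrowest.

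The other HP1 proteins are the closest relatives of HP1γ. CBX5 (chr12:54624726-54673917, minus strand, GRCh37) encodes HP1α, which concentrates in constitutive heterochromatin. With shHP1γ, CBX5 NM_012117 had 3.50, 4.86 and 5.35 CPM in ethanol and 3.28, 4.32 and 4.05 with dex, against 6.25, 6.17 and 4.42 and then 5.71, 5.07 and 5.66 with shNS. The dex libraries did not overlap, beside 6.41% of all tested transcripts that were lower with no overlap in dex, and CBX5 was lower in 5 of 6 pairs. The averaged log2 change of -0.39 had an interval below 0 (-0.70 to -0.07, unadjusted p = 0.018) but did not pass over all transcripts (adjusted p = 0.117, edgeR).

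With shGLP, CBX5 NM_012117 had 5.24, 4.44 and 6.44 CPM in ethanol and 4.24, 4.70 and 4.66 with dex. The dex values lay below those of shNS, as did 8.92% of all tested transcripts, and the averaged log2 change was -0.16 (interval -0.47 to 0.15, adjusted p = 0.606, edgeR). With shG9a it had 7.42, 5.77 and 4.05 CPM in ethanol and 5.36, 5.54 and 4.20 with dex, a change of -0.05 (interval -0.35 to 0.25, adjusted p = 0.875, edgeR). The other CBX5 accessions had at most 4 counts and 1 count in a library.

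CBX1 (chr17:46147414-46178840, minus strand, GRCh37) encodes HP1β. Its 2 accessions together had at most 2 counts in a library and 0 in the median library, so no change of HP1β mRNA was detectable at this depth.

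The trimethylating enzymes were measured poorly. SUV39H1 (chrX:48553945-48567407, plus strand, GRCh37) had 3 to 12 counts per library with shNS, 2 to 10 with shG9a, 2 to 10 with shGLP and 2 to 13 with shHP1γ on its tested accession. Its averaged log2 changes were 0.40 with shG9a (interval -0.57 to 1.37), 0.33 with shGLP (interval -0.68 to 1.34) and -0.21 with shHP1γ (interval -1.32 to 0.90). Each interval includes both a rise and a fall, and no adjusted p was under 0.655 (edgeR). The dex response of SUV39H1 differed between shHP1γ and shNS by 2.64 on the log2 scale with an unadjusted p of 0.0182, which did not pass (adjusted p = 0.999995, edgeR).

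SETDB1 (chr1:150898739-150937220, plus strand, GRCh37), the partner of TRIM28 at endogenous retroviruses, had 33 counts over the 6 shNS libraries, 19 with shG9a, 18 with shGLP and 22 with shHP1γ. SUV39H2 (chr10:14920819-14946314, plus strand, GRCh37) had 21 counts with shNS, 7 with shG9a, 9 with shGLP and 23 with shHP1γ. Neither gene reached 1 CPM in 2 libraries, so these sums carry no test.

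The adaptors had most of the reads and the tightest limits. TRIM28 (chr19:59055431-59062089, plus strand, GRCh37) encodes KAP1, which binds zinc finger repressors and recruits SETDB1 and HP1. In ethanol it had 1463.4, 1639.5 and 1850.3 CPM with shNS, 1630.2, 1593.1 and 1914.4 with shG9a, 1638.6, 1630.3 and 1995.2 with shGLP, and 1491.9, 1783.1 and 1957.5 with shHP1γ. In every group the value was highest in replicate 3, and all ethanol groups overlapped. The averaged log2 changes were 0.03 with shG9a (interval -0.07 to 0.14), 0.10 with shGLP (interval -0.01 to 0.21) and 0.08 with shHP1γ (interval -0.03 to 0.19), with adjusted p values of 0.739, 0.302 and 0.397 (edgeR). In percent of shNS, the intervals reached no higher than 110.4%, 115% and 114%. TRIM28 was higher than shNS in 4, 5 and 5 of 6 pairs with shG9a, shGLP and shHP1γ. With only the groups compared in the fit, the change with shGLP passed (0.10, adjusted p = 0.00799, edgeR).

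WIZ (chr19:15530789-15560767, minus strand, GRCh37) is a zinc finger protein of the G9a and GLP complex. WIZ NM_001330395 had 36.1 to 49.7 CPM with shNS, 33.9 to 47.0 with shG9a, 38.1 to 56.0 with shGLP and 40.6 to 47.5 with shHP1γ. Its averaged changes were -0.05 (interval -0.17 to 0.06), 0.11 (interval -0.01 to 0.22) and 0.10 (interval -0.02 to 0.21) with shG9a, shGLP and shHP1γ, with adjusted p values of 0.599, 0.281 and 0.333 (edgeR). The minor transcript NM_021241, with 10 to 41 counts per library, had a change of 0.55 with shGLP (interval 0.10 to 1.00, unadjusted p = 0.0182, adjusted p = 0.124, edgeR) and was higher in 5 of 6 pairs.

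WIZ NM_001330395 was higher with shGLP than with shG9a by 0.16 (interval 0.05 to 0.28, adjusted p = 0.0525, edgeR) and higher with shHP1γ than with shG9a by 0.15 (adjusted p = 0.073, edgeR). With both WIZ accessions summed, each difference was 0.17 and passed (adjusted p = 0.0341 and 0.0337, edgeR). The first difference also passed without shNS ethanol replicate 1 (adjusted p = 0.0479), shHP1γ dex replicate 1 (0.0493) or shGLP ethanol replicate 2 (0.0152).

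Of all 8 member transcripts, the number called higher was 0 with each depletion when averaged over treatments (edgeR and DESeq2). Of all tested transcripts, 6.36%, 5.79% and 6.16% were called higher with shG9a, shGLP and shHP1γ. The median log2 change of the 8 was -0.03, 0.07 and -0.15, beside -0.01, 0.02 and 0.03 over all tested transcripts. Within dex-treated cells none of the 8 was called, while 8.8% of all transcripts were called with shG9a, 5.77% with shGLP and 4.09% with shHP1γ; 1, 0 and 2 members had an unadjusted p under 0.05. In ethanol, none was called beside 3.73%, 3.61% and 2.91% of all transcripts, and 0, 1 and 1 had an unadjusted p under 0.05.

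A simulation of the model sets the scale for the negative results within dex-treated cells. With 2-fold changes added to simulated counts for shG9a against shNS in dex, 97.4% of changed transcripts with at least 50 counts were recovered, but 31.2% of those under 50. The tested transcripts of EHMT1 and SUV39H1, CBX3 NM_007276 and WIZ NM_021241 had 50 counts or fewer in every library, and those of CBX3 NM_016587 and CBX5 had 18 to 82 and 34 to 77. In that comparison, the test could therefore miss a change of 2-fold or less in transcripts under 50 counts, for which 31.2% is 1 common share. The interval there ended below a 2-fold rise for each of these member transcripts except SUV39H1. Its upper end was 142.7% of shNS for EHMT1, 123.7% for CBX5, 180.5% for CBX3 NM_016587 and 132.6% for CBX3 NM_007276. For WIZ NM_021241 the upper end was 142.0%, and for SUV39H1 572.5%. Averaged over treatments, the intervals of EHMT1, CBX5, CBX3 NM_016587 and CBX3 NM_007276 ended below a 2-fold rise in every depletion. Their highest ends were 116.4%, 119.2%, 157.6% and 122.7% of shNS. The intervals of SUV39H1 reached 258% with shG9a and 253% with shGLP, and that of WIZ NM_021241 reached 200.2% with shGLP.

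Dex alone moved none of the tested members past the limit in shNS cells. EHMT1 had 3.74, 4.60 and 3.91 CPM in ethanol and 2.67, 3.53 and 3.72 with dex, with no overlap, and a log2 change of -0.30 (interval -0.70 to 0.10, adjusted p = 0.421, edgeR). SUV39H1 also did not overlap, at 5, 12 and 6 counts in ethanol and 3, 4 and 3 with dex. In this comparison 15.6% of all transcripts were lower with no overlap. TRIM28 had 1385.4, 1365.5 and 1592.3 CPM with dex, lower than ethanol within each replicate, and a log2 change of -0.19 (interval -0.34 to -0.03, adjusted p = 0.131, edgeR). The change of TRIM28 passed without the filter on low counts (adjusted p = 0.0256), with 1 factor of unwanted variation in place of the block (0.0131), with only the groups compared (0.000431) and without shG9a dex replicate 2 (0.0374).

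Of the 8 members, 0 were called for dex by edgeR and DESeq2, 1 had an unadjusted p under 0.05, and 9.95% of all tested transcripts were called. CBX5, whose promoter window held the half-site, had a dex change of -0.03 (interval -0.46 to 0.40). No member had a dex response that differed between a depletion and shNS (edgeR and DESeq2), where 0.0885%, 0.118% and 0.0197% of all transcripts were called with shG9a, shGLP and shHP1γ, and 1 member, SUV39H1 with shHP1γ, had an unadjusted p under 0.05.

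Further factors of the same system were read from lists of other writers and cofactors, the HUSH complex, HP1- and KAP1-binding proteins, DNA methylation and H3K9 demethylases, with Polycomb genes for comparison. Among the other writers and cofactors, with 8 transcripts of 7 genes tested of 13 listed, CDYL rose by 0.36 with shGLP (adjusted p = 0.0434, edgeR), and ZNF217 fell by 0.14 with shG9a (adjusted p = 0.0303, edgeR). CDYL is a chromodomain corepressor that binds G9a. CDYL had 12.7 ± 3.69 CPM in shNS ethanol and 9.05 ± 1.48 in shNS dex (SD, n = 3), against 13.9 ± 1.97 and 13.7 ± 1.32 with shGLP. None of the 8 was called with shHP1γ, where 1 had an unadjusted p under 0.05 and 10% of all transcripts were called; with counts of 0 or 1 in 8, the list stays near the 13.6%, 10% and 10% of all transcripts called with shG9a, shGLP and shHP1γ.

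The HUSH complex spreads H3K9 trimethylation with SETDB1. Of its 6 transcripts tested of 5 genes, TASOR fell by 0.18 with shG9a (adjusted p = 0.0218, edgeR), and none was called with shGLP or shHP1γ, where 0 and 1 had an unadjusted p under 0.05 and 10% of all transcripts were called. TASOR had 101 ± 10.1 CPM in shNS ethanol and 91.5 ± 3.60 in shG9a ethanol (SD, n = 3).

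Among 16 transcripts of 15 HP1- and KAP1-binding proteins, 2 were called with shGLP, 1 with shHP1γ and 0 with shG9a, where 3 had an unadjusted p under 0.05. The shares of all tested transcripts called were 10%, 10% and 13.6%. LRIF1, which links HP1 to the inactive X chromosome, fell by 0.30 with shGLP (SE 0.06, adjusted p = 0.00113, edgeR). LRIF1 had 46.5 ± 2.31 CPM in shNS ethanol and 44.7 ± 1.21 in shNS dex, against 37.1 ± 1.92 and 37.1 ± 3.85 with shGLP (SD, n = 3). LBR, an inner nuclear membrane protein that binds HP1, rose by 0.50 with shHP1γ (adjusted p = 0.0403, edgeR), from 2.99 ± 0.19 to 4.70 ± 0.72 CPM in ethanol. The transcript NM_001313953 of AURKB, the kinase of the chromosomal passenger complex, rose by 0.81 with shGLP (adjusted p = 0.00155, edgeR), while its other tested transcript did not pass (adjusted p = 0.705).

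Of 8 transcripts for DNA methylation, none passed with shGLP or shHP1γ (edgeR), where 0 and 1 had an unadjusted p under 0.05 and 10% of all transcripts were called. Of 8 transcripts of H3K9 demethylases, KDM4C rose by 0.51 and KDM7A by 0.46 with shG9a (adjusted p = 0.0299 and 0.0436), KDM4A fell by 0.15 with shGLP (adjusted p = 0.0147), and KDM7A rose by 0.51 with shHP1γ (adjusted p = 0.0324, edgeR). KDM7A spread widely with shHP1γ, at 68.5 ± 32.8 CPM in ethanol. Of the 8 demethylase transcripts, 2, 1 and 1 were thus called with shG9a, shGLP and shHP1γ, beside 13.6%, 10% and 10% of all tested transcripts. Counts this small in 8 say little about the list.

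The Polycomb list includes chromodomain proteins of the CBX family that read methylated lysine 27 instead, besides other Polycomb subunits. PCGF2, a subunit of Polycomb repressive complex 1, rose in all depletions, by 0.32 with shG9a, 0.29 with shGLP and 0.30 with shHP1γ (adjusted p = 0.00456, 0.0115 and 0.00901, edgeR). PCGF2 had 18.9 ± 1.65 CPM in shNS ethanol, 23.9 ± 2.54 in shG9a ethanol, 22.8 ± 1.90 in shGLP ethanol and 24 ± 2.15 in shHP1γ ethanol (SD, n = 3). These comparisons share the shNS libraries. CBX2 rose by 0.24 with shG9a and by 0.15 with shHP1γ (adjusted p = 0.000106 and 0.0103, edgeR), and RNF2 rose by 0.18 with shG9a (adjusted p = 0.0396, edgeR). Of 13 Polycomb transcripts tested, 3, 1 and 2 rose and 1, 0 and 0 fell with shG9a, shGLP and shHP1γ. The shares of all tested transcripts called were 13.6%, 10% and 10%.

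**Figure D4:**
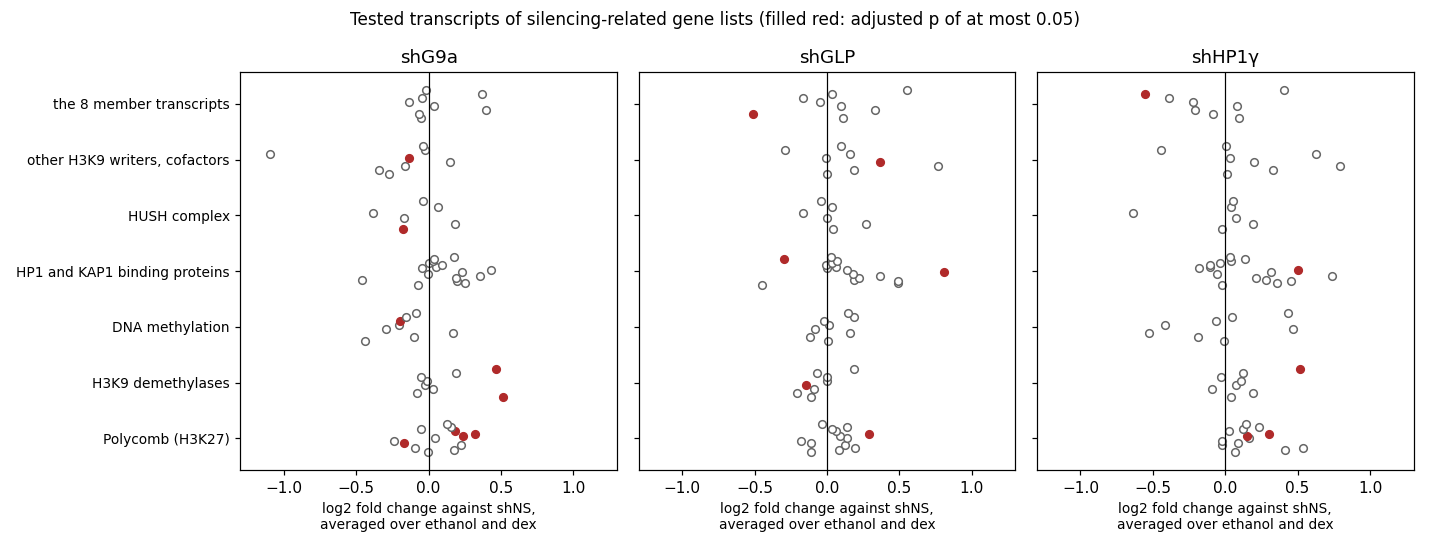
Log2 fold change against shNS averaged over ethanol and dex (x axis) of the tested transcripts of each gene list (rows; points are transcripts) in each depletion (panels); filled red marks an adjusted p of at most 0.05. Most points are open, and PCGF2, filled in the Polycomb row, lies near 0.3 in all 3 panels (0.32, 0.29 and 0.30).

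Lineage markers also changed in the depleted populations. Of 5 myeloid markers, LYZ rose by 2.96 on the log2 scale with shGLP (adjusted p = 2.02e-09, edgeR) and MPO by 1.18 (adjusted p = 0.0127, edgeR), while CSF1R was at 0 and CD14 and CD33 had at most 4 and 9 counts in a library. The summed level of the 5 was 26.8 to 34.4 CPM in shGLP ethanol and 21.1 to 30.5 in shGLP dex, against 4.51 to 8.25 and 3.07 to 3.61 with shNS. With shG9a, LYZ rose by 0.90 (adjusted p = 0.0165, edgeR), and the summed level was 6.78 to 8.98 CPM in ethanol and 4.76 to 7.20 with dex. Of the B-cell precursor markers, RAG1, a recombinase subunit, rose by 0.50 with shG9a and by 0.62 with shGLP and fell by 0.32 with shHP1γ (adjusted p = 5.59e-05, 2.51e-06 and 0.00577, edgeR). CD79A fell by 0.67 with shG9a (adjusted p = 0.0344, edgeR), and MME NM_001354644 rose by 0.56 with shHP1γ (adjusted p = 0.0175, edgeR). The other tested MME transcripts, NM_000902 and NM_007287, changed by 0.07 and 0.33 with shHP1γ and did not pass (adjusted p = 0.896 and 0.317, edgeR). The part of these markers in the changes of the other genes with the same hairpin was not tested. In RNA from a whole population, fewer cells with a transcript and less of it per cell cannot be told apart.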

How the data were processed

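RNA-seq was analysed from 24 Nalm6 libraries. The authors trimmed the paired-end reads and used HISAT2 for mapping to hg19 (GRCh37) and GenomicAlignments for counting on RefSeq accessions. The deposited table is named for CPM but holds whole numbers with unequal library totals, and was used as raw counts. A further table of the authors holds log2 fold changes and FDR values of their comparisons; it served only to pair accessions with gene symbols (9872 accessions), and RefSeq named 53873 more. The RefSeq release and the counting mode are not given in the sources used here.

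Transcripts over 1 CPM in at least 2 libraries (10167) were scaled by upper quartile factors and tested in R 4.3.3 with edgeR 4.0.16 (quasi-likelihood, all 24 libraries, 8 groups plus the replicate number), with Benjamini-Hochberg adjustment over all of them and a limit of 0.05. DESeq2 1.42.0, TMM, other filters, no replicate block, 1 factor of unwanted variation, fits of only the groups compared, counts summed per gene and fits without each replicate or library were alternatives. Levels are normalized CPM. The replicate number entered as a block because the labels' extraction protocol places replicates on different days; across groups, same-numbered libraries had correlations of 0.0122 to 0.535, with 56 of 84 over 0.1. No library duplicated another of its own group (chi-squared per degree of freedom 3.69 to 43.2), and libraries of different groups were not compared in this way. On simulated data the model recovered 69.8% of 2-fold changes for shG9a against shNS in dex, over 10167 transcripts, with 6.68% of calls false. With 3 libraries a group, an exact permutation test of 1 transcript could not pass 0.05, so none was used.

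Member genes and lists were chosen with earlier results of these data known. From each further list, up to 4 transcripts with the smallest adjusted p at or under 0.05 in an averaged comparison are named. Some results of these lists are not reported here. Promoter windows are from RefSeq on GRCh38.p14, and gene positions from the annotation of GRCh37.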

Additional observations from a re-analysis of the deposited data

How the results depend on the processing

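Counts of called member transcripts were recomputed for 13 comparisons under 35 alternatives each, 455 counts in all. Of these, 426 were within 1.5 times the reported count and 29 moved. Most of the 13 comparisons had a reported count of 0, and a 0 that stayed 0 was taken as within this range. The total therefore says little about the calls of EHMT1 and CBX3. For dex against ethanol in shNS, the count of 0 became 1 without the filter on low counts, with 1 factor of unwanted variation and with only the groups compared, and was 0 to 1 when a replicate or library was left out. For shGLP averaged over treatments, the count of 1 became 0 without the filter, with a mean of at least 5 CPM required (which removes EHMT1) and without the replicate block, became 2 with only the groups compared, and was 0 to 1 with a replicate or library left out. For shHP1γ averaged, it became 0 with a mean of at least 5 CPM (which removes CBX3) and was 0 to 1 with a replicate or library left out. For shG9a averaged, it was 0 to 1. Without the replicate block, the count changed in no other of these 13 comparisons than shGLP averaged, from 1 to 0; between depletions, the call of EHMT1 for shGLP against shG9a was also lost (adjusted p = 0.0878). Among member values called in the reported fit or in the alternative, 0 of 48 under other settings changed sign. With a replicate or library left out, 0 of 142 did. Among values called in neither fit, 27 of 852 and 160 of 3314 did. Why calls were lost was not tested; fits without a replicate hold fewer samples.

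Few reads per accession limit the results. EHMT1, CBX3 NM_016587 and SUV39H1 rest on at most 50, 82 and 13 counts per library on the accession tested, and CBX1, SETDB1 and SUV39H2 could not be tested. Both called members lost their call without any 1 replicate. G9a itself was not analysed here, so the shG9a label could not be checked against its target in these counts. The paper reports efficient depletion of G9a, GLP and HP1γ in the cells used for RNA-seq. It measured their protein by immunoblot and their mRNA by RT-qPCR. The falls of EHMT1 and CBX3 given here describe reads on single accessions and do not measure that depletion.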
